A study of Mus musculus with 6 samples.

Results

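The genes described here encode the proteins of both ribosomes of the mouse cell. They were taken by symbol from a table of 25140 genes: 88 genes of the cytosolic ribosome, 52 of the large subunit (*Rpl* and *Rplp* symbols) and 36 of the small subunit (*Rps* symbols and *Rpsa*), and 77 genes of the mitochondrial ribosome, 48 large (*Mrpl*) and 29 small (*Mrps*). Pseudogenes with a "-ps" symbol were left out, but 6 of the 165 members kept by this rule (*Rpl32l*, *Rpl6l*, *Rps12l1*, *Rps3a2*, *Rps3a3* and *Rps4l*) are annotated as pseudogenes. RNA-seq of polyadenylated RNA was performed in primary cardiac fibroblasts from the adult heart of C57BL/6 mice at passage 1, a cell type that turns into a contractile, matrix-producing myofibroblast under transforming growth factor beta (TGFβ). By the labels, culture was in 10% serum and 25 mM glucose with 80% confluence, and both groups had spent 16 h in medium with 1% serum. The study's methods instead give 24 h at 1% serum before treatment, with the same serum kept while it lasted. One group of 3 libraries then received vehicle and the other group of 3 libraries received TGFβ at 10 ng/ml for 24 h. The labels name cardiac fibroblasts, whereas the text of the study also speaks of embryonic fibroblasts in its results, and its methods call the libraries biological replicates without saying whether they came from separate animals. The p-values therefore measure the spread between these libraries, which may be technical in part.

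The cytosolic ribosome translates messages from the nucleus, and its protein genes are among the most strongly transcribed of any growing cell. Many of their messages begin with a run of pyrimidines, the terminal oligopyrimidine (TOP) tract, through which the mTOR pathway and the protein LARP1 control their translation. The mitochondrial ribosome is built from nuclear-encoded proteins that are imported into the organelle and from rRNA made there, and it translates only the few messages of the mitochondrial genome, all of them for subunits of oxidative phosphorylation. Its protein shell is larger than that of bacterial ribosomes, and many of its proteins have no bacterial counterpart.

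With TGFβ, 27 of the 77 mitochondrial ribosomal protein genes were higher and 2 were lower, whereas 4 of the 83 testable cytosolic genes were higher and 1 was lower (edgeR's quasi-likelihood test, Benjamini-Hochberg adjusted p under 0.05 over all tested genes). Among all 14334 genes tested, 20.5% were called higher and 20.1% lower, 40.7% in all. The mitochondrial list was thus called higher in 35.1% and lower in 2.60% of its members, and the cytosolic list in 4.82% and 1.20%. The changes were small in both. The median log2 fold change (TGFβ over vehicle) was 0.14, or 1.10-fold, over the mitochondrial genes and 0.04, or 1.03-fold, over the cytosolic genes, beside 0.00 over all tested genes. Over the 2993 tested genes counted at levels like those of most cytosolic genes, it was 0.06. No member of either list moved by more than 0.5 on the log2 scale, a size passed by 20.6% of all tested genes. The plot of the fold changes by subunit shows each tested gene.

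**Figure D1:**
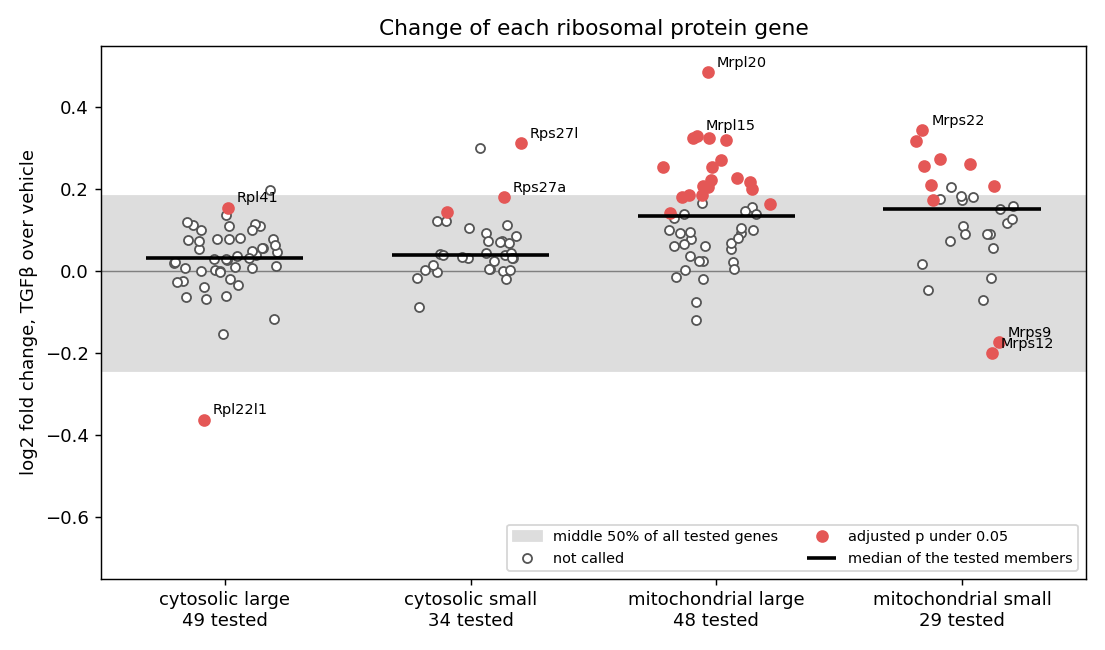
Log2 fold change (TGFβ against vehicle) of each tested ribosomal protein gene, by subunit; filled points have an adjusted p under 0.05, bars are medians of the tested members and the grey band holds the middle 50% of all 14334 tested genes (-0.24 to 0.18). The mitochondrial medians lie at 0.14 and 0.15 and the cytosolic medians at 0.03 and 0.04, and the called mitochondrial genes lie above 0 except *Mrps9* and *Mrps12*.

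The libraries held between 27851677 and 31072338 counts. Values below are CPM, the count of a gene relative to the size of its library, scaled with TMM factors, and levels between genes are compared only per length, as CPM per base of transcript rescaled to the same sum in each library (TPM). The rescaling removes the TMM factors, so a gene's TPM under vehicle and TGFβ can differ otherwise than its fold change, even in sign. The cells carried fibroblast transcripts: the 9 fibroblast markers summed to between 47098 and 60227 CPM. With TGFβ, 7 of them were called lower (77.8%, beside 20.1% of all tested genes). Markers of other cells were present at lower sums: 6 endothelial genes at 407 to 626 CPM under vehicle and 377 to 512 CPM under TGFβ, 6 leukocyte genes at 241 to 344 and 209 to 312 CPM, 6 smooth muscle and pericyte genes at 62.6 to 90.6 and 77.6 to 131 CPM, 5 mesothelial genes at 23.5 to 70.3 and 15.5 to 41.2 CPM, and 6 cardiomyocyte genes, 4 of them too low to test, at 38.4 to 59.1 and 27.1 to 40.1 CPM. The ranges of these lists overlapped between the groups, and no listed marker was at 0 in every library. Of the smooth muscle and pericyte genes, 1 of 6 was called higher with TGFβ (16.7%, beside 20.5% of all tested genes). The other lists of this kind held 0 calls. Proliferation markers moved with the treatment: 5 of 8 were called lower (62.5%, beside 20.1% of all tested genes). These markers summed to between 165 and 188 CPM under vehicle and between 117 and 138 CPM under TGFβ. Their part in the results below was not tested, and in these bulk samples fewer cells of a type and less RNA per cell cannot be told apart.

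The cytosolic ribosome took between 3.18% and 3.21% of the counts of a vehicle library and between 3.02% and 3.27% of those of a TGFβ library. Counting error alone was at most 0.00652 percentage points either way (95% Wilson interval, which covers counting error only). The mitochondrial ribosome took between 0.162% and 0.169% under vehicle and between 0.171% and 0.179% under TGFβ, so its groups did not overlap, while the cytosolic groups did. Scaled with TMM factors, the 77 mitochondrial genes summed to 1651, 1618 and 1589 CPM under vehicle and to 1737, 1788 and 1799 CPM under TGFβ. The means were 1619 ± 31.0 CPM (SD, n = 3) and 1775 ± 33.1 CPM (SD, n = 3). The 88 cytosolic genes summed to 31253, 31372 and 31545 CPM under vehicle and to 30771, 33279 and 32903 CPM under TGFβ. One TGFβ library thus lay below every vehicle library and the other two lay above. The ratio of the cytosolic to the mitochondrial sum took values of 18.9, 19.4 and 19.8 under vehicle and of 17.7, 18.6 and 18.3 under TGFβ, lower in each treated library. No test was run on these sums, since the members were chosen with results of these data known.

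**Figure D2:**
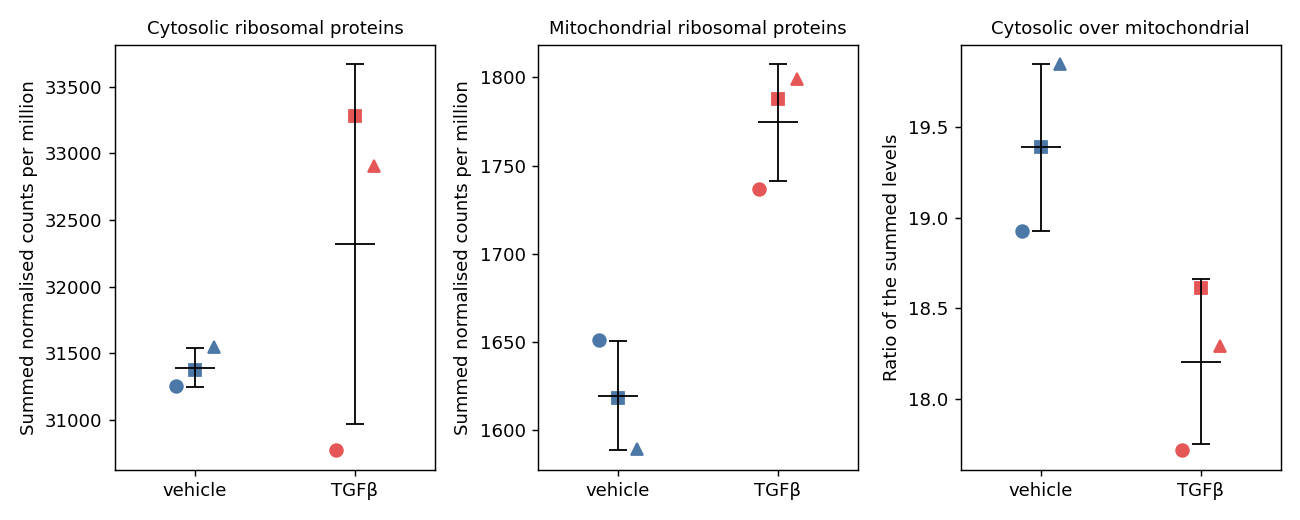
Summed CPM of the cytosolic and mitochondrial ribosomal protein genes and their ratio in each library; points are libraries (the same shape and colour mark the same library in all panels, and shapes do not pair libraries of different groups), bars are the mean and SD of 3 libraries, and the axes do not start at 0. The mitochondrial sum is higher in all 3 TGFβ libraries, whereas the cytosolic sum is split between 1 low and 2 high TGFβ libraries.

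The TGFβ library that lay low was the one with 27851677 counts. It gave the lowest CPM of the 3 TGFβ libraries for 78 of the 83 tested cytosolic genes and for 42 of the 77 mitochondrial genes. The median cytosolic gene lay 0.05 (log2) below its own mean over the 6 libraries in this library, and 0.06 and 0.05 above it in the other TGFβ libraries. In the vehicle libraries it lay between 0.03 and 0.01 below. For the median mitochondrial gene all 3 TGFβ libraries lay above (0.04, 0.08 and 0.09) and all 3 vehicle libraries below (from 0.06 to 0.09 below). Without the low library, 10 cytosolic genes were called higher instead of 4 and the cytosolic median rose to 0.07. In that fit 4674 of 14580 genes were called, 51.2% of them higher. The cytosolic list was thus still called higher less often than all genes. Leaving out any other library gave 2 or 3 higher calls (3 without the vehicle library of 29331999 counts, 2 without each of the rest). The 4 called with all libraries were among the 10, which also held *Rplp0*, *Rps24*, *Rpl19*, *Rps13*, *Rpl27* and *Rpl38*. After a trend with GC content and length was removed, the cytosolic median was -0.01 and the median of all genes stayed at -0.00. Library totals in place of TMM factors shifted all genes together, to a median of -0.05 over all genes and of -0.01 over the cytosolic genes.

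**Figure D3:**
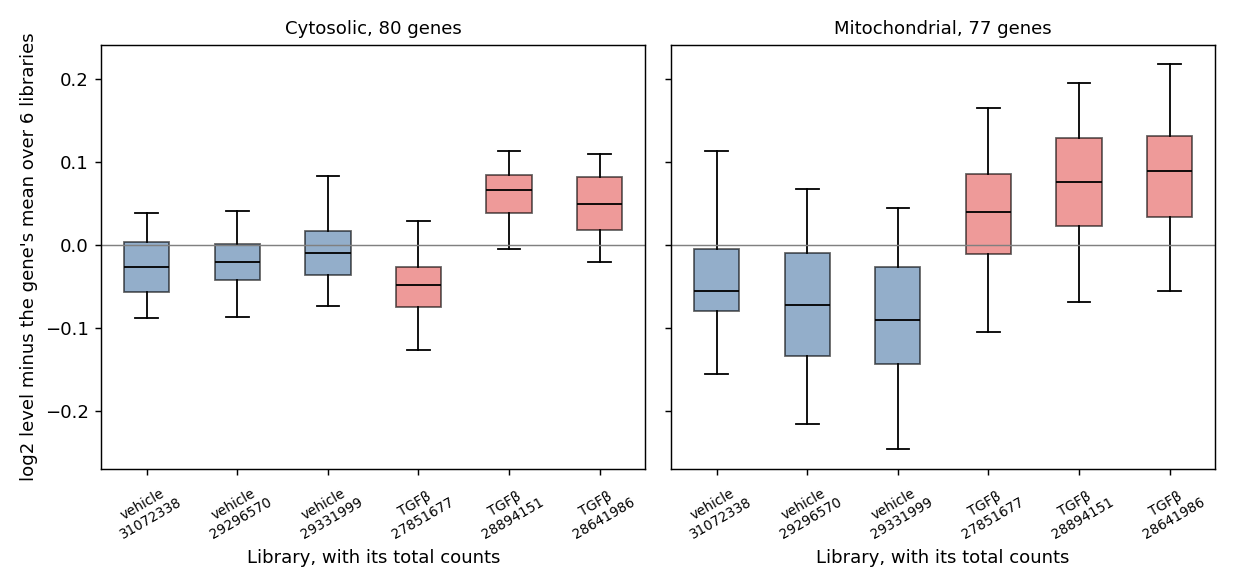
Log2 level of each gene in each library minus its mean over the 6 libraries, for the 80 cytosolic and 77 mitochondrial genes with a mean level above 5 TPM; boxes hold the middle 50% of genes, whiskers the 5th to 95th percentile, and each library is marked by its total counts. The cytosolic box of the TGFβ library with 27851677 counts lies below 0 while those of the other TGFβ libraries lie above 0.

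In the cytosolic large subunit, 2 of 49 tested genes were called (4.08%, beside 40.7% of all tested genes). *Rpl41* (chromosome 10, 128548114 to 128549305, minus strand, build GRCm38) encodes the smallest ribosomal protein, a basic peptide. It was counted at 302, 301 and 304 CPM under vehicle and at 320, 351 and 340 CPM under TGFβ. The groups did not overlap, and the spread was wider among the TGFβ libraries. This was a log2 fold change of 0.15 (standard error, SE, 0.05, edgeR adjusted p = 0.0297), and the call was kept in 7 of 15 alternative fits. Of the libraries left out in turn, it held only without the TGFβ library of 27851677 counts, and with the trend in GC content and length removed the log2 fold change was 0.07 (edgeR adjusted p = 0.207).

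*Rpl22l1* (chromosome 3, 28805436 to 28807424, plus strand), the paralog of *Rpl22* that can take its place in the ribosome, was the gene of either list that fell most. It was counted at 68.8, 76.0 and 77.8 CPM under vehicle and at 48.0, 59.2 and 65.8 CPM under TGFβ. All TGFβ libraries lay below the vehicle libraries, although the highest TGFβ library came within 3 CPM of the lowest vehicle library. On the log2 scale the change was -0.36 (SE 0.11, 95% interval -0.61 to -0.11, edgeR adjusted p = 0.0298), a level 0.778 times that under vehicle, and 12 of 15 alternatives kept the call. It was lost without the vehicle library of 29296570 or 29331999 counts or the TGFβ library of 28894151 counts (adjusted p = 0.083, 0.080 and 0.068 by edgeR). Without the TGFβ library of 27851677 counts the call was kept, with a smaller log2 fold change of -0.25 (edgeR adjusted p = 0.0488). Its parent *Rpl22*, an RNA-binding protein of the large subunit, was at 246 ± 3.74 CPM under vehicle and 253 ± 9.07 CPM under TGFβ (SD, n = 3; adjusted p = 0.486 by edgeR). *Rpl22l1* therefore held between 22% and 24.2% of the counts of the pair under vehicle and between 16.5% and 20.2% under TGFβ, ranges that did not overlap.

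*Rpl3*, which shapes the peptidyl transferase centre, lay just outside the threshold. It was at 637, 673 and 678 CPM under vehicle and at 562, 613 and 612 CPM under TGFβ. The groups did not overlap. The fitted log2 fold change was -0.15 with an adjusted p of 0.0516 (edgeR), and 8 of 15 alternatives called it lower. Of the libraries left out in turn, it was called only without the TGFβ library of 28641986 counts (edgeR adjusted p = 0.048). Without the TGFβ library of 27851677 counts the log2 fold change was -0.11 (edgeR adjusted p = 0.139). The stalk proteins, which recruit the elongation factors, did not pass the test. *Rplp0*, the base of the stalk, changed by 0.14 on the log2 scale (adjusted p = 0.0590 by edgeR), *Rplp1* of 0.10 (adjusted p = 0.145) and *Rplp2* of 0.12 (adjusted p = 0.107). *Rplp1* had the highest level per length of all members, at 6121 TPM under vehicle and 6288 TPM under TGFβ.

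In the cytosolic small subunit, 3 of 34 tested genes were called, all of them higher (8.82%, beside 20.5% of all tested genes). *Rps27l* (chromosome 9, 66946086 to 66949516, plus strand), the p53-inducible paralog of *Rps27*, rose most. It was at 97.0, 90.4 and 81.0 CPM under vehicle and at 115, 113 and 106 CPM under TGFβ. Both groups kept a gap between them, with the lowest TGFβ library above the highest vehicle library. Its log2 fold change was 0.31 (SE 0.07, 95% interval 0.15 to 0.47, edgeR adjusted p = 0.00891), and it was the only cytosolic gene called in all 15 alternatives. *Rps27*, its parent, lay at 284 ± 14.5 CPM under vehicle and 293 ± 16.2 CPM under TGFβ (SD, n = 3; adjusted p = 0.582 by edgeR), with overlapping groups. The share of *Rps27l* in the counts of the pair was between 21.3% and 26.4% under vehicle and between 25.9% and 29.5% under TGFβ, ranges that overlapped.

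*Rps27a* (chromosome 11, 29545846 to 29548109, minus strand) encodes a fusion of ubiquitin with a small subunit protein. Its values were 282, 294 and 288 CPM under vehicle and 321, 334 and 325 CPM under TGFβ, again without overlap. The log2 fold change of 0.18 (SE 0.04) had an adjusted p of 0.00899 (edgeR). *Rps25* (chromosome 9, 44407139 to 44410427, plus strand), needed for initiation at certain viral and cellular internal entry sites, was at 270 ± 4.04 CPM under vehicle and 298 ± 7.76 CPM under TGFβ (SD, n = 3; log2 fold change 0.14, adjusted p = 0.0229 by edgeR). The call of *Rps27a* was kept in 14 and that of *Rps25* in 9 of 15 alternatives. With the trend in GC content and length removed, *Rps27a* had a log2 fold change of 0.10 (edgeR adjusted p = 0.0583) and *Rps25* of 0.06 (0.275). Without the vehicle library of 31072338 or 29296570 counts, or the TGFβ library of 28894151 or 28641986 counts, *Rps25* was not called. *Rps28*, the small subunit gene with the highest level per length (2616 TPM under vehicle and 2529 TPM under TGFβ), had a log2 fold change of 0.01 with a 95% interval from -0.11 to 0.14.

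**Figure D4:**
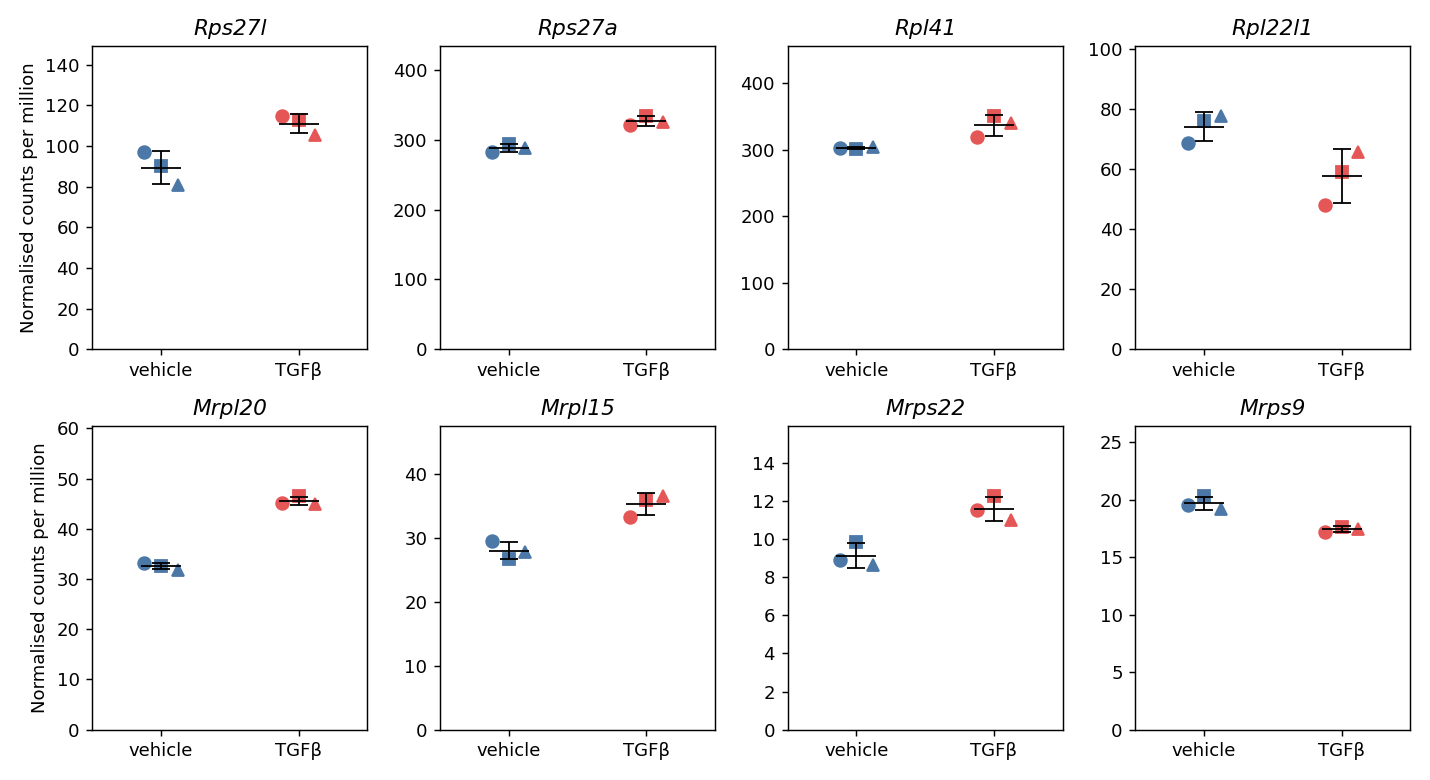
CPM in each library for 4 cytosolic (top) and 4 mitochondrial (bottom) ribosomal protein genes called in this comparison; points are libraries, bars are the mean and SD of 3 libraries, and every axis starts at 0. *Rpl22l1* and *Mrps9* are lower and the other genes higher in all 3 TGFβ libraries, and the change is largest for *Mrpl20*.

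The remaining 78 tested cytosolic genes were not called. This does not show that they did not change. Over the 83 tested genes, 79 had a 95% interval of the log2 fold change that stayed within 0.5 of 0. The same held for 74 of the 77 mitochondrial genes, and 27 of these 77 were called higher. The limit therefore does not separate unchanged genes from genes with changes as small as theirs. Counted without the test, 16 of the 83 had TGFβ libraries that all lay above the vehicle libraries and 4 had them all below (19.3% and 4.82%), beside 27.2% and 26.1% of all tested genes. The middle 50% of cytosolic fold changes spanned 0.08 on the log2 scale, against 0.43 over all tested genes and 0.34 over the 2993 tested genes in the range of 67.2 to 1360 CPM, which leaves out the least counted members. In that range 56.8% of genes were called, 35.7% higher and 21.1% lower, and the median log2 fold change was 0.06. TGFβ libraries all lay above the vehicle libraries for 42.6% of the genes in that range and all below for 25.3%.

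Other paralogs were at low levels or moved little. *Rpl7l1*, which acts in the making of the large subunit, was at 76.1 ± 2.16 CPM under vehicle and 80.0 ± 0.163 CPM under TGFβ (SD, n = 3; adjusted p = 0.156 by edgeR), between 9.76% and 10.6% of the counts it shared with *Rpl7* in any library. *Rps4l*, a transcribed pseudogene, stood at 40.0 ± 6.33 and 37.7 ± 2.62 CPM (SD, n = 3; adjusted p = 0.563), beside 702 ± 2.83 and 705 ± 25.2 CPM for *Rps4x*. *Rpl36al* received 38 to 61 counts a library against 5005 to 5749 for *Rpl36a*, *Rps27rt* 17 to 30 against 7496 to 8921 for *Rps27*, and *Rpl39l*, known from testis, 9 to 16 against 5320 to 6510 for *Rpl39*. The muscle form *Rpl3l* had 1 count in each of 2 TGFβ libraries and none in the others, where *Rpl3* had between 15371 and 20258. Such paralogs were uncertain where reads cannot be told from those of the parent: 90.3% of the 75-base windows of *Rps27rt* and 61.3% of those of *Rpl36al* also occur in other genes.

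Besides *Rpl3l*, the filter on low counts removed *Rpl24* (3 to 6 counts a library), *Rpl32l* (2 to 9), *Rps12l1* (0 to 2) and *Rps3a2* (0 to 24, of which 24 in 1 vehicle library). *Rpl24* encodes a standard large subunit protein. Of its 75-base windows, 80.9% also occur in transcripts of other genes, most of them in *Gm28037*, and the cause of its low count was not tested. Shared sequence was common in the cytosolic list: 71 of 83 tested genes shared at least 10% of their windows with other genes, compared with 11 of 77 mitochondrial genes. All 5 called cytosolic genes were among those 71, from 12% for *Rps27l* to 70.7% for *Rps27a*, so that among the 12 with less shared sequence edgeR called 0 genes, with 0 at an unadjusted p under 0.05, and their median log2 fold change was 0.04. Of the 210 "-ps" pseudogene entries 56 could be tested, and edgeR, DESeq2 and limma-voom each called 0 of them (5, 1 and 6 at an unadjusted p under 0.05), with a median of -0.03.

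Start sites in RefSeq (build GRCm38.p6) were found for 63 cytosolic and 68 mitochondrial genes, and the windows show how they differ in sequence. A TOP-like start, C at the first transcribed base followed by at least 4 pyrimidines (C or T), stood at 14 of 75 cytosolic promoters (18.7%), at 2.51% of all 32851 promoters in the table, and at 0 of 74 mitochondrial promoters. Within 5 bases of the start site the shares were 42.7%, 18.3% and 23.0%. Of the 14 genes, *Rpl32l* was not tested and the other 13 were not called. These 5 are shown as examples, with 15 bases before the start site and 15 from it on, and the pyrimidine run in capitals.
Rps6 (chr4:86857353-86857382, minus strand): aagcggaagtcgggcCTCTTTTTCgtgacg
Rpl35 (chr2:39005117-39005146, minus strand): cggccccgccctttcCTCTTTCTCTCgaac
Rpl15 (chr14:18270972-18271001, minus strand): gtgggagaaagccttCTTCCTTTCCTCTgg
Rps18 (chr17:33955651-33955680, minus strand): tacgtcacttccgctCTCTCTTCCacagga
Rpl38 (chr11:114668565-114668594, plus strand): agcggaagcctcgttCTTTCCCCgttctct
Most cytosolic promoters, called or not, hold no such run at the annotated first base, and these 3 windows of called members, without capitals, are examples. That of *Rpl22l1* holds a pyrimidine run just after its annotated start. No start window was found for the called gene *Rps27a*.
Rpl22l1 (chr3:28805493-28805522, plus strand): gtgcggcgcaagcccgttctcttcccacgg
Rps25 (chr9:44407699-44407728, plus strand): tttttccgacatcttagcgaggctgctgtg
Rpl41 (chr10:128549154-128549183, minus strand): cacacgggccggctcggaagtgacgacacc
An annotated start can differ by some bases from the one used in these cells, and a match is a description of letters, not of regulation.

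The mitochondrial large subunit had 19 of 48 genes called, all of them higher (39.6%, beside 20.5% of all tested genes). *Mrpl20* (chromosome 4, 155802878 to 155809975, plus strand), the counterpart of bacterial L20, an early binder of the large subunit rRNA in bacteria, had the largest rise of all members. It was counted at 33.1, 32.6 and 31.9 CPM under vehicle and at 45.2, 46.5 and 45.0 CPM under TGFβ. The libraries of each group lay within 2 CPM of each other and the groups were far apart. This was a log2 fold change of 0.49 (1.40-fold, SE 0.04, adjusted p = 9.08e-05 by edgeR), between 0.43 and 0.50 over the 15 alternatives.

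*Mrpl15* (chromosome 1, 4773206 to 4785739, minus strand), the counterpart of bacterial L15, was at 29.4, 26.7 and 27.8 CPM under vehicle and at 33.3, 35.9 and 36.5 CPM under TGFβ. On the log2 scale the change was 0.33 (SE 0.06, edgeR adjusted p = 0.00291). *Mrpl57* (chromosome 14, 57826234 to 57829296, plus strand), a protein that bacteria lack, rose from 16.1 ± 1.08 to 20.1 ± 0.524 CPM (SD, n = 3; log2 fold change 0.32, adjusted p = 0.00562 by edgeR). In both genes all TGFβ libraries lay above all vehicle libraries, and 7 genes of the mitochondrial list were called higher in all 15 alternatives: these and *Mrpl20*, *Mrpl28*, *Mrpl47*, *Mrpl19* and *Mrps22*.

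Genes of the same subunit stood at different levels. *Mrpl52* was highest per length, at 177 TPM under vehicle and 190 TPM under TGFβ, with a log2 fold change of 0.17 that did not pass the test (adjusted p = 0.0798 by edgeR). *Mrpl1*, the counterpart of the bacterial L1 stalk protein, was lowest, at 8.26 and 7.92 TPM. Its vehicle libraries were at 12.6, 11.1 and 10.4 CPM and its TGFβ libraries at 11.6, 11.4 and 11.3 CPM, a log2 fold change of 0.00 with a 95% interval from -0.19 to 0.20. *Mrpl12*, which forms the stalk that binds the mitochondrial elongation factors, was higher (log2 fold change 0.20, adjusted p = 0.0439 by edgeR), a call kept in 5 of 15 alternatives and lost with DESeq2 and with library totals. *Mrpl58*, a peptide-releasing hydrolase built into the large subunit, stood at a log2 fold change of -0.12 (adjusted p = 0.235), the lowest of the subunit.

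In the mitochondrial small subunit, 8 of 29 genes were called higher and 2 lower (27.6% and 6.90%, beside 20.5% and 20.1% of all tested genes). *Mrps22* (chromosome 9, 98588730 to 98601660, minus strand), which has no bacterial counterpart and is mutated in a human deficiency of oxidative phosphorylation, was at 8.92, 9.85 and 8.62 CPM under vehicle and at 11.5, 12.2 and 11 CPM under TGFβ. The groups did not overlap, and the log2 fold change was 0.34 (SE 0.08, edgeR adjusted p = 0.0115). *Mrps18c*, 1 of 3 forms of the bacterial S18 protein, rose from 9.72 ± 0.385 to 12.1 ± 0.892 CPM (SD, n = 3; log2 fold change 0.32, adjusted p = 0.0144 by edgeR). The other two forms, *Mrps18a* and *Mrps18b*, had log2 fold changes of -0.07 and 0.17 (adjusted p = 0.478 and 0.137). *Mrps25* had the lowest level per length of the subunit and was higher with TGFβ (5.83 to 6.76 TPM, log2 fold change 0.27, edgeR adjusted p = 0.0235). *Mrps21* had the highest and was higher too (132 to 146 TPM, log2 fold change 0.21, edgeR adjusted p = 0.0144). Leaving out 1 library ended the call of *Mrps18c* in 1 case (28894151, TGFβ), of *Mrps21* in 2 (28894151, TGFβ, and 29296570, vehicle) and of *Mrps25* in 4 (all but 31072338, vehicle, and 28894151, TGFβ). *Mrps21* was also not called by DESeq2 (adjusted p = 0.0533) or after the trend in GC content and length was removed (log2 fold change 0.12, edgeR adjusted p = 0.0761).

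The 2 genes that fell encode counterparts of bacterial proteins. *Mrps12* (chromosome 7, 28739641 to 28741820, minus strand), the counterpart of S12 in the decoding centre, was at 30.1, 26.7 and 25.9 CPM under vehicle and at 24.3, 24.3 and 23.5 CPM under TGFβ. *Mrps9* (chromosome 1, 42851233 to 42905683, plus strand), the counterpart of S9, was at 19.5, 20.3 and 19.2 CPM under vehicle and at 17.2, 17.7 and 17.5 CPM under TGFβ. In both, all TGFβ libraries lay below all vehicle libraries. The log2 fold changes were -0.20 (SE 0.07, adjusted p = 0.0421) and -0.17 (SE 0.05, adjusted p = 0.0306, edgeR), and each call was kept in 8 of 15 alternatives. Neither was called without any 1 of 5 libraries, and both were called without the vehicle library of 29331999 counts.

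Over both subunits, 42 of the 77 mitochondrial genes (54.5%) had TGFβ libraries that all lay above the vehicle libraries and 2 (2.60%) had them all below, beside 27.2% and 26.1% of all tested genes. The fold change was above 0 for 68 genes and below 0 for 9. For the cytosolic genes these numbers were 66 and 17, and for all tested genes 7136 and 7198. For a single gene a group that lies wholly apart gives p = 0.1 in the two-sided exact permutation test, the smallest p that 3 libraries against 3 allow. Among the 5855 tested genes in the same range of CPM (6.17 to 47.5), 20.1% were called higher and 21.8% lower. Split by the number in the symbol, a split chosen after the values were seen, large subunit proteins numbered up to 36, which mostly follow a bacterial protein, were called higher in 10 of 28 cases, and those numbered above 36, mostly specific to mitochondria, in 9 of 20. In the small subunit, the count was 5 of 16 for numbers up to 21, with the 2 that fell, and 3 of 13 above 21. By structure, *Mrps18a* and *Mrps30* are known to sit in the large subunit and *Mrps36* is now known as a part of a metabolic enzyme complex, and none of these 3 was called (adjusted p = 0.478, 0.108 and 0.448 by edgeR).

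Call counts over all genes and higher calls in the mitochondrial list fell whichever library was left out, which gives the test fewer libraries. Over all genes they fell from 5828 to between 4489 and 5481. The mitochondrial median log2 fold change stayed between 0.12 and 0.15 in these fits. Without any 1 library, between 12 and 19 mitochondrial genes were called higher: leaving out 28894151 (TGFβ) gave 12, 29296570 (vehicle) 13, 28641986 (TGFβ) or 29331999 (vehicle) 16, and either of the others 19, each library being named by its total count. With library totals in place of TMM factors 11 were called higher, with a median of 0.09, and DESeq2 called 14, all of them among the 27. Under library totals 5677 of 14334 genes were called, and the share of higher genes among these calls fell from 50.5% to 38.9%. DESeq2 called 5020 of all genes, 49.7% of them higher. Without 28894151 (TGFβ), 4761 of 14603 genes were called, 50.4% of them higher. In the fit with library totals, and in the fit without 28894151, the mitochondrial list was not called higher more often than all genes.

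Ribosomal proteins with other symbols had been listed separately. For the mitochondrial ribosome, 3 of 5 were higher, led by *Chchd1* (14.1 ± 0.375 to 17.4 ± 1.89 CPM, SD, n = 3; log2 fold change 0.31, adjusted p = 0.0237 by edgeR), with *Gadd45gip1* and *Aurkaip1*. These were 60.0% of a list of only 5 genes, beside 20.5% of all tested genes. The call of *Chchd1* held only without 31072338 (vehicle) or 28641986 (TGFβ) when each library was left out, and it was lost after the trend in GC content and length was removed (adjusted p = 0.0701). *Dap3* and *Ptcd3* had log2 fold changes of 0.11 and 0.12 (adjusted p = 0.0654 and 0.108). For the cytosolic ribosome, *Rack1*, a scaffold on the small subunit, had a log2 fold change of 0.13 and *Fau* of 0.12, with adjusted p values of 0.0857 and 0.0859. The rRNAs of the mitochondrial ribosome had overlapping groups in these polyadenylated libraries: *mt-Rnr1* was at 175 ± 13.7 CPM under vehicle and 158 ± 35.0 CPM under TGFβ, and *mt-Rnr2* at 697 ± 50.5 and 689 ± 69.7 CPM (SD, n = 3; adjusted p = 0.451 and 0.897 by edgeR).

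Per length the ribosomes stood far apart. The median cytosolic gene (80 tested protein-coding genes) was at 1196 TPM and the median mitochondrial gene at 35.1 TPM, 34.1 times lower. The middle 50% of cytosolic genes lay between 823 and 1599 TPM, and 76 of the 80 lay above 300 TPM. Mitochondrial genes ranged from 6.29 TPM (*Mrps25*) to 184 TPM (*Mrpl52*), with the middle 50% between 19.6 and 55.6 TPM. These levels rest on 1 transcript length per gene and, for the cytosolic genes, on reads that may be shared with pseudogenes.

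The machinery that builds and serves the cytosolic ribosome held genes with larger changes. Of 43 genes for rRNA processing and subunit assembly, 31 were higher and 1 was lower (72.1% and 2.33%), beside 20.5% and 20.1% of all tested genes. Their median log2 fold change was 0.30. *Rrp9*, which binds U3 snoRNA, rose most (14.9 ± 0.464 to 22.3 ± 1.56 CPM, SD, n = 3; log2 fold change 0.59, adjusted p = 0.000417 by edgeR). *Imp3*, another U3 component, fell (36.5 ± 1.44 to 30.7 ± 1.19 CPM; log2 fold change -0.25, adjusted p = 0.00608). The core nucleolar proteins *Nop58*, *Nop56* and *Fbl* had log2 fold changes of 0.43, 0.48 and 0.34 (adjusted p of at most 0.00539), while *Npm1* had 0.07 (adjusted p = 0.408).

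RNA polymerase I, which transcribes the large rRNA precursor, had 4 of 15 genes higher and 1 lower. These were 26.7% and 6.67%, beside 20.5% and 20.1% of all tested genes. *Cd3eap*, a polymerase I subunit, went from 12.6 ± 0.0651 to 23.8 ± 3.37 CPM (SD, n = 3; log2 fold change 0.92, adjusted p = 0.000361 by edgeR). The catalytic subunit *Polr1a* and the initiation factor *Rrn3* rose too (log2 fold changes 0.41 and 0.31), and the terminator *Ttf1* fell (-0.21, adjusted p = 0.0341), a call that held with 27851677 (TGFβ) left out and with no other library left out. Cytosolic aminoacyl-tRNA synthetases, which charge tRNAs, were higher in 19 of 20 cases with a median of 0.31. The leucyl enzyme *Lars* rose most (126 ± 4.46 to 193 ± 2.94 CPM; log2 fold change 0.61, adjusted p = 3.69e-05), and *Qars* had 0.03 (adjusted p = 0.624).

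Translation factors whose messages carry a TOP tract, as those of the ribosomal proteins do, were called higher in 3 of 14 cases and lower in 3. These shares of 21.4% each lay near the 20.5% and 20.1% of all tested genes, and the median was -0.02. *Eif4b*, a helicase cofactor, fell from 564 ± 20.3 to 441 ± 15.5 CPM (SD, n = 3; log2 fold change -0.36, adjusted p = 0.000949 by edgeR), and *Eef1b2* rose from 522 ± 2.17 to 585 ± 30.2 CPM (0.16, adjusted p = 0.0309), the latter called again only without the TGFβ library of 27851677 counts when each library was left out. Of 15 regulators of TOP messages and ribosome synthesis, 4 were higher and 4 lower (26.7% each). *Rheb*, the GTPase that activates mTORC1, rose (97.6 ± 4.05 to 143 ± 4.41 CPM; log2 fold change 0.55, adjusted p = 9.71e-05). *Deptor*, an mTOR inhibitor, fell most (19.6 ± 1.66 to 8.82 ± 0.790 CPM, adjusted p = 7.75e-05), and *Larp1* rose by 0.19 (adjusted p = 0.00676).

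The partners of the mitochondrial ribosome differed between lists in their calls. Among 15 mitochondrial translation factors, 5 were higher and 1 was lower (33.3% and 6.67%), with a median of 0.11. Of all tested genes, 20.5% were higher and 20.1% lower. *Slirp*, which stabilises mitochondrial messages, rose (log2 fold change 0.24, adjusted p = 0.0109), as did the elongation factor *Tufm* (0.22, adjusted p = 0.00784), and *Oxa1l*, which inserts the products into the inner membrane, fell (-0.20, adjusted p = 0.0108, edgeR). Of 22 assembly factors of the mitochondrial ribosome, 2 were called, *Noa1* and *Nsun4*, both higher (log2 fold changes 0.31 and 0.22), and the list's median was 0.03. Mitochondrial aminoacyl-tRNA synthetases were higher in 3 and lower in 4 of 17 cases (17.6% and 23.5%), from *Mars2* (0.36, adjusted p = 0.00652) to *Sars2* (-0.48, adjusted p = 0.0116). Among 14 genes for the transcription and replication of mitochondrial DNA, *Tefm* was higher (0.38, adjusted p = 0.0182, lost without 29296570 or 29331999, vehicle, or 27851677, TGFβ) and the coactivators *Ppargc1a* and *Ppargc1b* were lower. *Ppargc1a* was counted at only 0.503, 0.438 and 0.771 CPM under vehicle and at 0, 0.143 and 0.0702 CPM under TGFβ. The transcription factors *Nrf1* and *Gabpa*, known activators of genes for the mitochondrial ribosome, had log2 fold changes of -0.00 and -0.05 (adjusted p = 0.976 and 0.429).

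**Figure D5:**
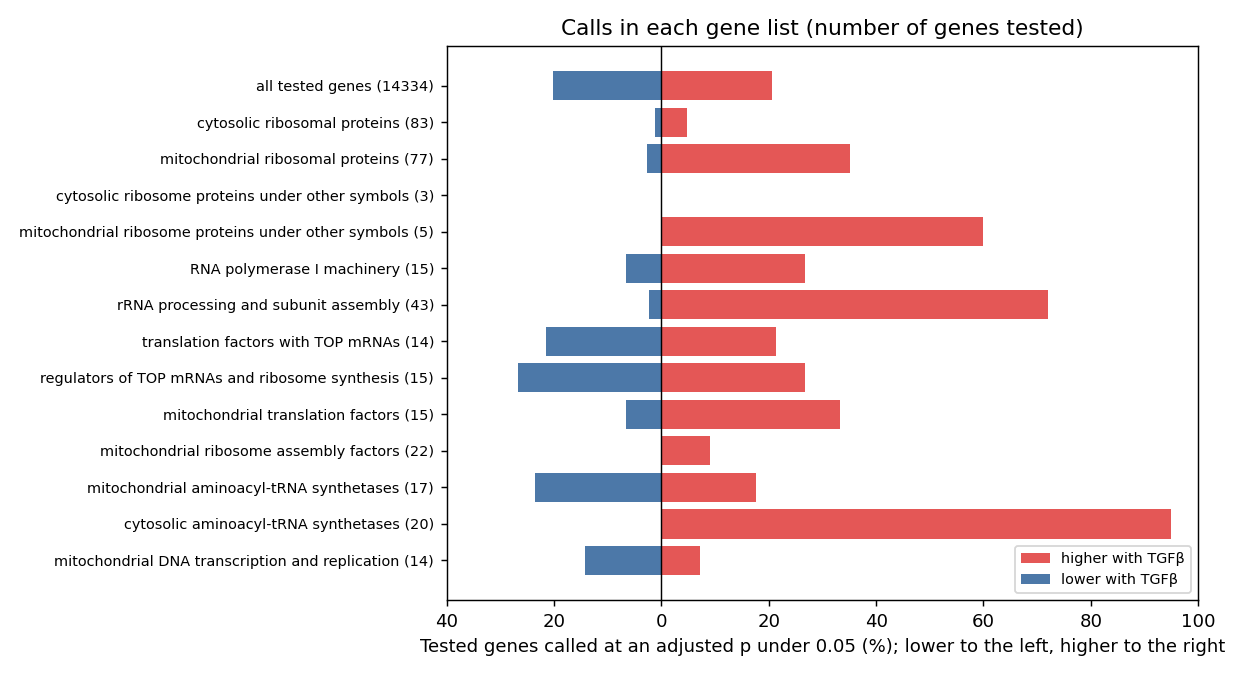
Percent of the tested genes of each list called higher (right of 0) or lower (left of 0) with TGFβ at an adjusted p under 0.05, with the number of genes tested in brackets. The bars of rRNA processing (31 of 43 higher) and cytosolic aminoacyl-tRNA synthetases (19 of 20) reach far to the right, the bar of the mitochondrial ribosome (27 of 77) less far, and that of the cytosolic ribosome (4 of 83) stays near 0.

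Promoters of both ribosomes held the core motif CCGGAAG, the letters bound by ETS factors such as GABP, more often than promoters at large. Searched on both strands of the 300 bases around the start site, it stood in 36% of cytosolic and 33.8% of mitochondrial promoters and in 8.86% of all promoters in the table. Among mitochondrial genes called higher it stood in 8 of 24 promoters, and among those not called in 16 of 48. Some genes have more than 1 promoter, and counted by gene it was 8 of 24 and 16 of 42. The letters GCGCA and GCGC with 1 base between them, a core of the NRF1 site, were in 7 of 24 promoters of mitochondrial genes called higher, in 5 of 48 of those not called, in 1 of the 2 genes called lower (*Mrps9*), in 8.0% of cytosolic promoters and in 4.6% of all promoters, a description on few promoters. Examples from genes that rose are shown with the ETS core in capitals, in windows of 29 bases read in the direction of the gene.
Mrps22 (chr9:98601673-98601701, minus strand): aacctctcgagCCGGAAGttgctctatcg
Mrpl57 (chr14:57826232-57826260, plus strand): ccccagagagaCCGGAAGcagcgcgccgc
Mrpl43 (chr19:45006437-45006465, minus strand): caaccccggaaCCGGAAGtcaccggttag
Mrpl51 (chr6:125192099-125192127, plus strand): caggggctaaaCCGGAAGtatttgactgg
*Mrps12*, which fell, holds the same core.
Mrps12 (chr7:28741803-28741831, minus strand): aaggaggaaccCCGGAAGgggctggaggt
A match of letters does not show binding, and binding was not measured in these data.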

How the data were processed

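Per the study's methods, stranded libraries of polyadenylated RNA were read from 1 end over 75 bases. Alignment was to mm10, and the authors' own comparison used DESeq2. The counting tool and its treatment of shared reads are not given in the sources used here. The deposited table holds, per gene and library, the authors' counts of reads as whole numbers without normalization. It also holds the authors' mean, fold change and p-values, which were not used. Column headings give the group but no replicate number.

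In R 4.3.3, edgeR 4.0.16 computed TMM factors, a filter on low counts (filterByExpr) and the quasi-likelihood test over 14334 genes with Benjamini-Hochberg adjustment at 0.05. Standard errors were derived from the F statistic, and 95% intervals are not adjusted for the number of genes. Exact permutation tests were two-sided. The fits were first tested on simulated data with 200 changed genes. There edgeR, DESeq2 and limma-voom recovered 89.5%, 93.5% and 89% of these genes. Of their calls, 5.29%, 12.2% and 4.81% were false. Recovery was counted over all 200 genes together. How often fold changes as small as the medians of the ribosomal lists are recovered was not tested. DESeq2 1.42.0 and limma-voom (limma 3.58.1) were run as alternatives. Gene lengths and shared 75-base windows came from 1 principal transcript per gene of GENCODE M21 (all 165 members matched), and start sites from RefSeq (GRCm38.p6), with 250 bases before and 50 from the start site on.

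Alternatives were other scalings, filters, DESeq2, limma-voom, correction for GC content and length, each library left out, an adjusted p of 0.01, members with under 10% shared windows, and shares without the 10 most counted genes. Named genes are, per subunit, the 3 called genes that rose most and the 3 that fell most, the highest and lowest per length, the paralogs with their parents, and the called gene of each related list that rose or fell most. Others named were chosen after their values were seen. The members and lists were chosen with earlier results of these data known.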

Additional observations from a re-analysis of the deposited data

How the results depend on the processing

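No paired analysis was possible because the columns of counts carry no replicate numbers. Medians and counts were recomputed under 15 other fits. Library totals only gave 2 cytosolic genes higher, 2 lower and a cytosolic median of -0.0133, with 11 mitochondrial genes higher and a median of 0.0882. In that fit 5677 of all genes were called, 38.9% of them higher. Removal of the GC content and length trend gave 2 cytosolic genes higher, 3 lower and a median of -0.0125, with a mitochondrial median of 0.1184. DESeq2's size factors, upper quartile scaling, a filter of 1 CPM in 3 libraries, DESeq2 and limma-voom each called 2 cytosolic genes lower. DESeq2 called 14 mitochondrial genes higher and 0 lower, beside 5020 of all genes in either direction. Without a filter 0 mitochondrial genes were called lower. At an adjusted p of 0.01, 3595 of all 14334 tested genes were called in either direction. Of the members, 2 of 83 cytosolic and 6 of 77 mitochondrial genes were called higher and 0 lower. At this threshold both lists were thus called less often than all genes. Of members with under 10% shared windows, 0 cytosolic genes were called higher and 0 lower (12 genes remain). With each library left out, 2 to 10 cytosolic genes were higher and 0 to 2 lower, and 12 to 19 mitochondrial genes were higher and 0 to 2 lower. In these fits 4489 to 5481 of all genes were called in either direction. Without the 10 most counted genes the difference in share was -0.033 in place of -0.024 percentage points (cytosolic) and 0.010 in place of 0.009 (mitochondrial).

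Changes of sign were found for uncalled genes near 0. With library totals only, which moved the median of all genes from -0.00 to -0.05 and so shifted every gene alike, the log2 fold change was -0.0383 for *Rps28*, -0.0508 for *Mrpl1*, -0.0122 for *Rpl22*, -0.0153 for *Rpl39*, -0.0088 for *Rps27*, -0.0471 for *Rps4x* and -0.0257 for *Rpl36a*. After trend removal it was -0.1028 for *Rps28*, -0.064 for *Rpl22*, -0.0408 for *Rpl39*, -0.0637 for *Rps27*, -0.0413 for *Rps4x* and -0.0765 for *Rpl36a*. Upper quartile scaling gave -0.0069 for *Rps28*, -0.0186 for *Mrpl1* and -0.0151 for *Rps4x*. DESeq2's size factors, DESeq2 and the 1 CPM filter gave -0.0028, -0.001 and -0.0065 for *Mrpl1*, and that filter -0.003 for *Rps4x*. With each library left out, the values ran from -0.024 to 0.0541 for *Rps28*, -0.0565 to 0.0805 for *Mrpl1*, -0.1912 to 0.0372 for *Rps4l*, -0.0256 to 0.0231 for *Rps4x*, -0.2057 to 0.017 for *Rpl36al* and -0.3 to 0.13 for *Rps27rt*. The causes of the changes other than those with library totals were not tested.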

Other observations

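*Mrps12* and *Sars2* are neighbours on chromosome 7 that point away from each other with 171 bases between them, and both were lower with TGFβ. *Sars2*, which charges mitochondrial serine tRNAs, was at 8.55, 6.74 and 8.38 CPM under vehicle and at 5.89, 5.44 and 5.65 CPM with TGFβ. This pair was picked out after the values were seen, and no test of neighbours was run.

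*Lars2*, the mitochondrial leucyl-tRNA synthetase, was counted at 225, 204 and 394 CPM under vehicle and at 447, 1099 and 293 CPM with TGFβ. The groups overlapped, and the spread was wide (274 ± 104 against 613 ± 428 CPM, SD, n = 3, adjusted p = 0.0874 by edgeR).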
